A study of Mus musculus with 14 samples.

Results

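The comparison described here set thymic progenitors of killer innate-like T cells, labelled ILTCkP, against CD8 single-positive thymocytes, labelled CD8SP. It used 4 of the 14 samples of the series, 2 bulk RNA-sequencing libraries of each population, chosen by the labels of the thymic count table. Both populations came from the thymus of C57BL/6 mice, and no transgene or treatment is given for either. Per the labels' protocols, a gate of the thymic sort took cells with little or no CD4 or CD8α. These cells did not bind the CD1d tetramer loaded with PBS-57, and the gate went on to CD25. CD8SP cells carry CD8 by their name, so that gate is not taken to describe them. The rest of that gate, the exact gate of CD8SP, the age and number of the animals and any pooling are not given in these sources. The series calls the 2 libraries of a group biological replicates without naming the animals they came from; p-values therefore reflect how much these particular libraries vary, which may be technical. The other 10 samples were not analysed here.

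CD8 single-positive thymocytes are the last thymic stage of conventional killer T cells, which leave for the blood and lymph nodes and need antigen before they act. Innate-like αβ T cells instead take on effector features in the thymus, where developing cells whose receptors meet self ligands strongly can survive as unconventional lineages rather than be deleted. In bulk RNA, more cells of a type and more RNA per cell cannot be told apart, and this holds for every difference below.

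The libraries held 27826979 to 32097301 counts, and 17741 to 19625 genes were detected in each. Log2(CPM + 1) correlated across genes with a Pearson coefficient of 0.9907 between the CD8SP libraries and 0.9589 between the ILTCkP libraries (genes are not independent replicates). Levels are CPM, counts scaled to library size and by TMM, and folds are log2 fold changes of ILTCkP over CD8SP ± standard error with 2 libraries a group. The CD8 coreceptor genes followed the labels, and CD8α was itself part of the sort. Cd8b1 stood at 3043 and 2618 CPM in CD8SP and 7.13 and 11.1 CPM in ILTCkP, and Cd8a at 2116 and 1842 CPM in CD8SP and 14.6 and 34.8 CPM in ILTCkP. Cd4, at 14.1 and 5.03 CPM in CD8SP and 24.99 and 17.9 CPM in ILTCkP, and Il2ra, which encodes CD25, at 1.96 and 1.20 CPM in CD8SP and 1.14 and 1.69 CPM in ILTCkP, did not pass the test (edgeR adjusted p = 0.282 and 0.907).

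The ILTCkP libraries differed from each other with transcript GC content, and so did the 2 populations. Across 5490 genes with a mean log2 CPM of at least 5, the fold change had a Spearman correlation of 0.52 with GC content, the ratio of ILTCkP replicate 2 to replicate 1 one of -0.60, and the CD8SP ratio one of -0.13; these are descriptions across genes of the same 4 libraries. The median log2 fold change went from -0.51 among the 1098 genes with the least GC to 0.40 among the 1098 with the most. Transcript length was examined as well, with correlations of -0.03 for the fold change, 0.08 for the ILTCkP ratio and 0.30 for the CD8SP ratio. With each library's smooth GC trend removed, a fit added after the data were seen, the correlation with the fold change was 0.02, 655 of the 689 called genes were called in the same direction, 34 were not called and 0 changed sign. That fit called 611 genes higher and 289 lower. What gives rise to the GC trend was not tested, and genes named below that lost their call in that fit are said to have done so.

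**Figure D1:**
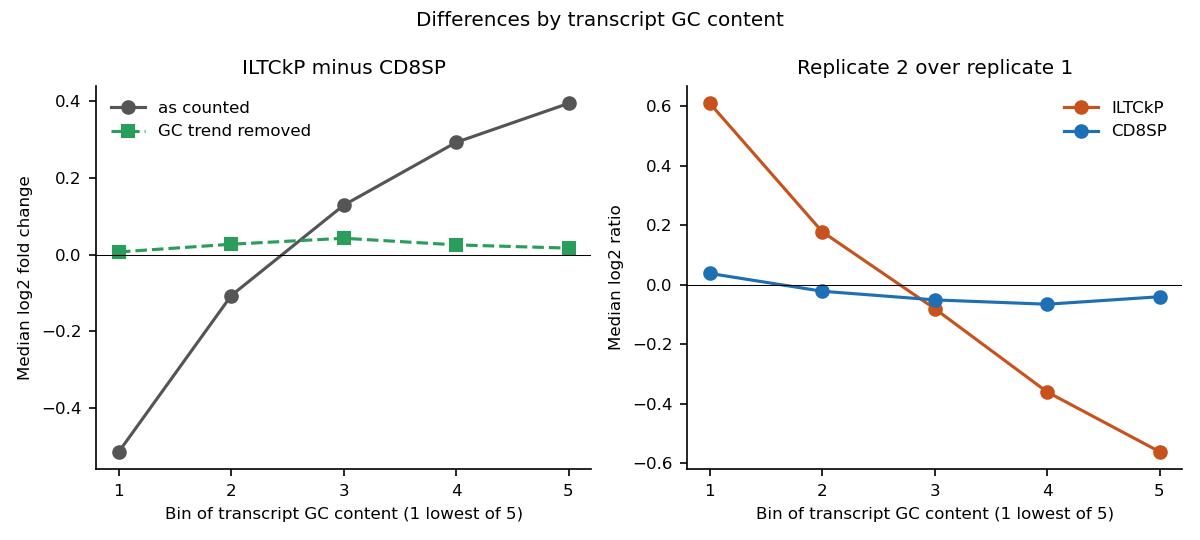
Median log2 fold change of ILTCkP over CD8SP (left) and median log2 ratio of replicate 2 to replicate 1 within each population (right), by transcript GC content in 5 bins of 1098 genes each. The fold change goes from -0.51 to 0.40 as counted and lies between 0.01 and 0.04 with the GC trend removed; the ILTCkP replicate ratio goes from 0.61 to -0.56.

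Of 14634 genes tested, 495 were higher and 194 lower in ILTCkP at an edgeR adjusted p under 0.05, which is 4.71% of the genes (3.38% higher and 1.33% lower). The smallest called difference was 2.12-fold. In 8511 genes, 58.2%, both ILTCkP libraries lay above or below both CD8SP libraries, so separated libraries alone mark no gene out. The called share was 15.9% among 558 genes of surface molecules (56 higher, 33 lower), 9.78% among 890 of signalling (67 and 20), 7.15% among 881 of metabolism (50 and 13) and 4.99% among 702 of transcription factor families (28 and 7). It was 3.52% of the 11373 genes in none of the 104 lists and families that were counted. The shares describe lists drawn up with earlier results of these data known, and their differences were not tested. Counts of members called in the lists below stand against the 3.38% higher and 1.33% lower over all genes tested. Of the same 14634 genes DESeq2 called 1289 higher and 695 lower, and list counts by DESeq2 stand against those. For an unadjusted p under 0.05 no share over all genes is given, so list counts at that level are a description only.

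**Figure D2:**
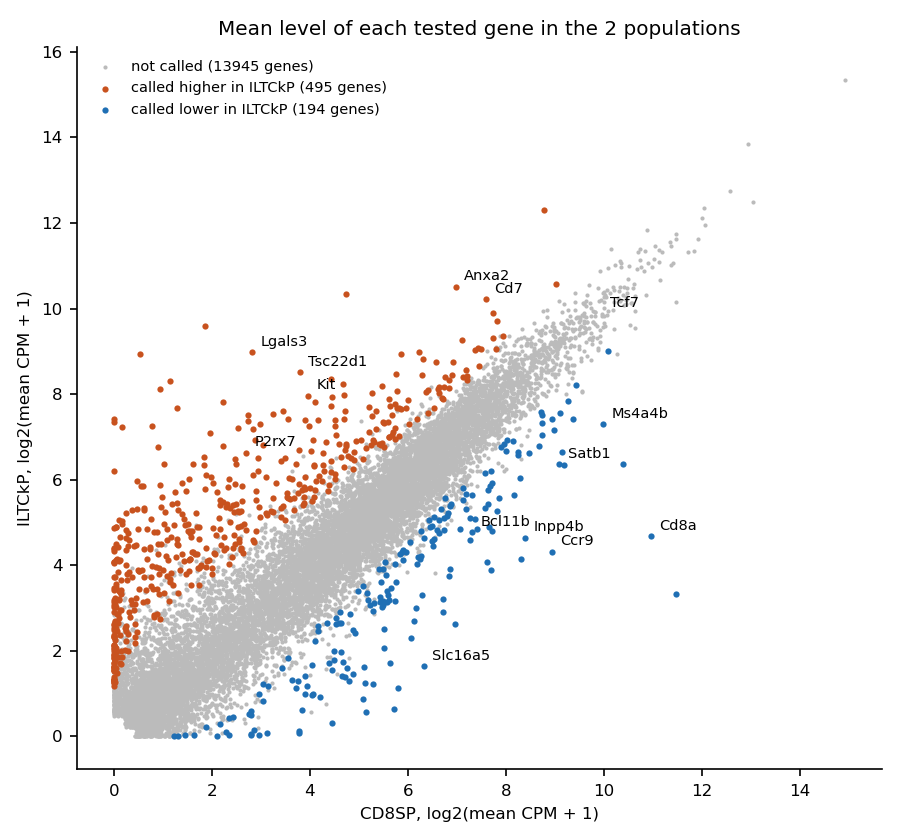
Mean level of each of the 14634 tested genes in CD8SP (horizontal) and ILTCkP (vertical), as log2 of the mean CPM of 2 libraries plus 1; orange marks the 495 genes called higher in ILTCkP and blue the 194 called lower. Lgals3, Kit and P2rx7 lie far above the diagonal, Ccr9, Inpp4b and Satb1 far below it, and Tcf7 lies on it.

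The guanylate-binding proteins and immunity-related GTPases, which interferons induce and which act against microbes inside cells, were low in ILTCkP. The family as counted also included Mx1. Of its 20 tested members 11 fell, no call was higher, and all 20 had a negative fold change, with a median of -1.66 against 0.01 over all genes tested. Igtp, an immunity-related GTPase, stood at 303 and 304 CPM in CD8SP and 97.4 and 90.2 CPM in ILTCkP (log2 -1.69 ± 0.21, edgeR adjusted p = 0.0133). Tgtp1 stood at 45.02 and 44.2 CPM in CD8SP and 2.40 and 3.89 CPM in ILTCkP (log2 -3.82 ± 0.39, edgeR adjusted p = 0.00911), but its neighbour Tgtp2, at 44.7 and 43.002 CPM in CD8SP and 6.98 and 8.28 CPM in ILTCkP, is a near-identical copy and counts may have been split between them. Mx1, an antiviral GTPase of another kind, stood at 11.1 and 13.2 CPM in CD8SP and 1.38 and 0.981 CPM in ILTCkP (log2 -3.36 ± 0.45, edgeR adjusted p = 0.0171). In each of these genes every ILTCkP library lay below every CD8SP library, while 58.2% of all genes tested had no overlap in either direction.

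Guanylate-binding protein genes fell as well. Gbp2 stood at 102 and 94.8 CPM in CD8SP and 29.8 and 35.2 CPM in ILTCkP (log2 -1.59 ± 0.25, edgeR adjusted p = 0.0264), and Gbp4 and Gbp9 changed by -1.53 ± 0.27 and -1.63 ± 0.28. Irgm1, which regulates the other immunity-related GTPases, stood at 207 and 213 CPM in CD8SP and 43.9 and 75.6 CPM in ILTCkP (log2 -1.81 ± 0.32, edgeR adjusted p = 0.0371). The calls of Gbp2, Gbp4, Gbp7 and Ifi47 were lost without either CD8SP replicate and those of Gbp9 and Iigp1 without CD8SP replicate 2. The family's transcripts had a median GC content of 45.3%, against 49.5% over all genes; with the GC trend removed its median was -1.55, and Gbp7 and Iigp1 were no longer called.

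Type I interferons act through a complex that contains IRF9 and binds the interferon-stimulated response element. Irf9 stood at 274 and 243 CPM in CD8SP and 123 and 117 CPM in ILTCkP and fell (log2 -1.11 ± 0.21, edgeR adjusted p = 0.0441). Leaving out either library of CD8SP ended the Irf9 call. Trim30a, an interferon-induced gene, stood at 106 and 106 CPM in CD8SP and 20.8 and 33.4 CPM in ILTCkP (log2 -1.97 ± 0.31, edgeR adjusted p = 0.0293). The promoters of 3 of the GTPase genes are shown because they hold the core letters of that element close to the start site, on GRCm38.p6 from RefSeq, 250 bases before to 50 after the start and read along the gene, with the matching letters in capitals. Gbp2 lies on chromosome 3 (142620413 to 142620712, plus strand), Igtp on chromosome 11 (58199306 to 58199605, plus strand) and Irgm1 on chromosome 11 (48871371 to 48871670, minus strand), where 2 matches overlap.
Gbp2: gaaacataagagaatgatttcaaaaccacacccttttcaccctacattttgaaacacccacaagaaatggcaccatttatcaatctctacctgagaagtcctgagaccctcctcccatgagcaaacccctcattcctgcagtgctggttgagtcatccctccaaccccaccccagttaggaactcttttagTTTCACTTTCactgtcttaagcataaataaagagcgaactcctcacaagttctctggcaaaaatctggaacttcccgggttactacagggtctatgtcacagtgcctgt
Igtp: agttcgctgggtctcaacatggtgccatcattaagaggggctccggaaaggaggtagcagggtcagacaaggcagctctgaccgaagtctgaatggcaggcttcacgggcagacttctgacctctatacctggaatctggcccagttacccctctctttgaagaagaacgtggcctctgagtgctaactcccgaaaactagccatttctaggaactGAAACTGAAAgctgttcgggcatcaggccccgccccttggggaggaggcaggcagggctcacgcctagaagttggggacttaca
Irgm1: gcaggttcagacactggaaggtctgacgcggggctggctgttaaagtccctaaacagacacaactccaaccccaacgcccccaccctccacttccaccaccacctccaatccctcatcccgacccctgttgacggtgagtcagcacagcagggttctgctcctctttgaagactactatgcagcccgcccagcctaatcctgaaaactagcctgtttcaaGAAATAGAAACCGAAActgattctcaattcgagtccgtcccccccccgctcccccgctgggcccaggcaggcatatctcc
The core searched was GAAANNGAAA, on both strands. It was present in 9 of 11 promoters of the GTPase family, 31 of 187 promoters of genes called lower (16.6%), 13 of 507 of genes called higher (2.56%) and 397 of all 12257 promoters of tested genes (3.24%). These groups overlap, since called GTPase genes also count among the genes called lower. The 11 promoters do not cover the 20 tested members: Gbp3 has more than 1, and Gbp4, Gbp9, Iigp1 and Mx1 have none there. The first match began 59 bases before the start site in Gbp2, 34 in Igtp and 30 in Irgm1. A match describes letters and not binding.

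In all 12 motifs were searched, chosen after the calls were seen and on both strands, and none was tested. The shares in promoters of higher, lower and all tested genes were 8.28%, 7.49% and 6.98% for the STAT element TTCNNNGAA, 6.31%, 6.95% and 5.21% for the NF-κB core GGGANNNTCC and 7.50%, 8.02% and 4.90% for the AP-1 core TGANTCA. Among the 11 promoters of the GTPase family the STAT element was present in 6 (54.5%), and the NF-κB and AP-1 cores in 2 each. They were 11.2%, 5.88% and 10.1% for the EGR core GCGNGGGCG, 0.197%, 2.14% and 1.04% for the NR4A element AAAGGTCA, and 0.394%, 1.60% and 0.832% for the T-box core AGGTGTGA. For the cyclic AMP element TGACGTCA they were 0.592%, 1.60% and 3.08%, for the RUNX core TGTGGTT 5.92%, 6.42% and 3.92%, and for the TCF core CTTTGAT 2.37%, 3.74% and 2.47%. The ETS core GGAAGT gave 23.7%, 22.99% and 28.8%, and the E-box CAGGTG 22.3%, 21.4% and 18.3%. Matches of different motifs could overlap, and some genes have several promoters.

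Transcription factor genes that rose in ILTCkP came from several families rather than 1. Tsc22d1, a leucine-zipper protein induced by TGF-β, stood at 13.996 and 11.8 CPM in CD8SP and 371 and 356 CPM in ILTCkP (log2 4.81 ± 0.25, edgeR adjusted p = 0.00208; chromosome 14, 76414961 to 76507765). Sox5, an SRY-box factor, stood at 1.41 and 6.01 CPM in CD8SP and 122 and 96.2 CPM in ILTCkP (log2 4.87 ± 0.72, edgeR adjusted p = 0.0238; chromosome 6, 143828425 to 144781977), and both ILTCkP libraries lay far above a CD8SP pair that itself differed several-fold. Litaf, a regulator of inflammatory genes and of endosomes, stood at 20.1 and 21.04 CPM in CD8SP and 224 and 197 CPM in ILTCkP (log2 3.36 ± 0.24, edgeR adjusted p = 0.00449). Irf5, an interferon regulatory factor known from myeloid and B cells, stood at 1.59 and 2.09 CPM in CD8SP and 36.4 and 23.8 CPM in ILTCkP (log2 4.03 ± 0.43, edgeR adjusted p = 0.0102).

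Tbx21, which encodes T-bet, the factor of type 1 responses, rose from 4.24 and 3.58 CPM to 32.004 and 47.9 CPM (log2 3.35 ± 0.38, edgeR adjusted p = 0.0112), while Eomes, its relative in memory and killer cells, fell from 9.27 and 6.33 CPM to 1.26 and 1.26 CPM (log2 -2.63 ± 0.48, edgeR adjusted p = 0.0401; lost without CD8SP replicate 1). Zbtb7b, which encodes ThPOK, the factor of the helper lineage that represses the CD8 programme, stood at 0.138 and 0.0316 CPM in CD8SP and 23.8 and 9.29 CPM in ILTCkP (log2 7.56 ± 0.88, edgeR adjusted p = 0.0127). Nfkb1, the p105 and p50 subunit of NF-κB, stood at 57.3 and 50.3 CPM in CD8SP and 307 and 228 CPM in ILTCkP (log2 2.31 ± 0.26, edgeR adjusted p = 0.0108), and Etv5, an ETS factor, at 4.10 and 8.73 CPM in CD8SP and 52.9 and 52.01 CPM in ILTCkP (log2 3.03 ± 0.45, edgeR adjusted p = 0.024). Hhex and Heyl, a homeobox and a Notch-responsive repressor gene, were at most 0.728 CPM in CD8SP and rose to 5.72 and 13.2 CPM and 11.2 and 22.3 CPM (edgeR adjusted p = 0.0283 and 0.0142). Klf8 and Klf9 rose from near 0 to 6.98 and 7.36 CPM and 5.40 and 2.94 CPM, the second a call lost with limma-voom. Apart from Eomes, whose ILTCkP levels lay below both CD8SP levels, each of these ILTCkP levels lay above every CD8SP level of the same gene. Over all genes tested, 58.2% had libraries that did not overlap between the populations.

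Id2 and Id3, inhibitors of the E proteins that drive early T cell development, both rose: Id2 from 117 and 94.2 CPM to 293 and 278 CPM, and Id3 from 559 and 482 CPM to 1791 and 1249 CPM (log2 1.43 ± 0.22 and 1.55 ± 0.26). Nr4a1 and Egr2, early targets of T cell receptor signals, stood at 178 and 181 CPM in CD8SP and 627 and 435 CPM in ILTCkP (log2 1.56 ± 0.25, edgeR adjusted p = 0.0306) and at 45.4 and 43.9 CPM in CD8SP and 161 and 159 CPM in ILTCkP (log2 1.84 ± 0.22, edgeR adjusted p = 0.0121). The Ikaros family members Ikzf2 (Helios) and Ikzf3 (Aiolos) rose by 1.37 ± 0.23 and 1.81 ± 0.25, 2 of the 5 tested. These differences were smaller than those above, and the calls of Id2, Id3, Nr4a1 and Ikzf2 were lost without either CD8SP replicate and those of Egr2 and Ikzf3 without CD8SP replicate 2.

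Of the factors that hold T cell identity, some fell and others did not pass the test. Satb1, a chromatin organiser of thymocytes, stood at 509 and 579 CPM in CD8SP and 70.2 and 93.05 CPM in ILTCkP (log2 -2.74 ± 0.25, edgeR adjusted p = 0.00733; chromosome 17, 51736187 to 51833290). Bcl11b, which commits cells to the T lineage, stood at 146 and 169.6 CPM in CD8SP and 24.7 and 27.8 CPM in ILTCkP (log2 -2.59 ± 0.24, edgeR adjusted p = 0.00738). Tcf7 and Lef1, the TCF factors of naive and early T cells, stood at 1023 and 955 CPM in CD8SP and 937 and 946 CPM in ILTCkP and at 859 and 825 CPM in CD8SP and 705 and 563 CPM in ILTCkP and did not pass the test (log2 -0.07 ± 0.19 and -0.41 ± 0.22, edgeR adjusted p = 0.858 and 0.324). Tsc22d3, a glucocorticoid-induced gene also known as GILZ, fell by 1.89 on the log2 scale, and Skil, a repressor of TGF-β signalling, fell by 2.06, a call lost without CD8SP replicate 2. Among 37 AP-1 and other bZIP factors, 16 clock genes and 33 Wnt and TCF genes edgeR called 0 (13, 5 and 8 at an unadjusted p under 0.05, and 8, 3 and 3 by DESeq2), and 1 of 63 histone and DNA modifying enzymes was, Hdac9. Of 339 numbered zinc finger genes 2 rose and no call was lower; their median of -0.30 was -0.07 with the GC trend removed.

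**Figure D3:**
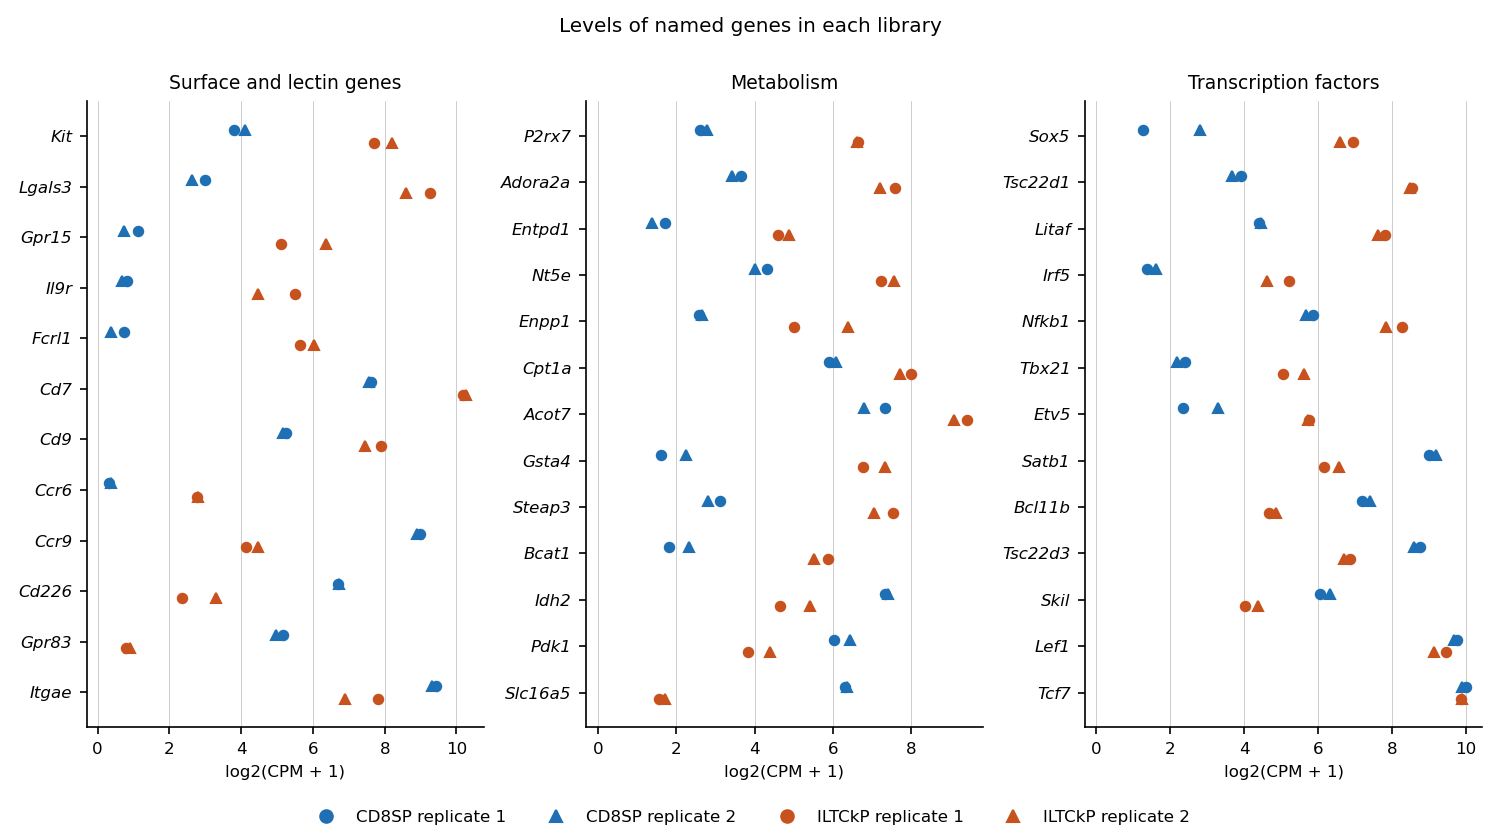
Level of selected named genes in each of the 4 libraries, as log2(CPM + 1), for surface and lectin genes (left), metabolism (middle) and transcription factors (right); circles are replicate 1 and triangles replicate 2. The ILTCkP and CD8SP libraries do not overlap in any gene drawn, including Tcf7 and Lef1, which did not pass the test.

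On the surface, homing receptors changed in both directions. Ccr9, the receptor for the thymic and gut chemokine CCL25, stood at 506 and 478 CPM in CD8SP and 16.6 and 21.4 CPM in ILTCkP (log2 -4.70 ± 0.26, edgeR adjusted p = 0.00268; chromosome 9, 123678439 to 123784330). Ccr7, whose product brings naive T cells into lymph nodes, stood at 1469.5 and 1211 CPM in CD8SP and 117 and 46.2 CPM in ILTCkP and fell (log2 -4.04 ± 0.50, edgeR adjusted p = 0.0146). Gpr15, a receptor for entry into the colon, rose from 1.17 and 0.664 CPM to 33.9 and 81.98 CPM (log2 5.98 ± 0.64, edgeR adjusted p = 0.0103). Ccr6 and Cx3cr1, chemokine receptors of tissue and effector lymphocytes, rose by 4.46 ± 0.57 and 3.12 ± 0.42, to 5.79 and 5.95 CPM and 85.2 and 47.4 CPM. Of 32 markers of single-positive thymocyte maturation, which include Ccr7 and Ccr9, 2 rose and 6 fell, with a median of -0.56. Of 91 G protein-coupled receptors 9 rose and 8 fell, 18.7% called against 4.71% over all genes tested.

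The 8 G protein-coupled receptor genes that fell also included Tbxa2r, Gpr83 and Adgrg3. Tbxa2r, the thromboxane receptor, stood at 105 and 142 CPM in CD8SP and 3.70 and 6.56 CPM in ILTCkP (log2 -4.58 ± 0.41, edgeR adjusted p = 0.00733). Gpr83, an orphan receptor often used as a regulatory T cell marker, stood at 34.7 and 30.6 CPM in CD8SP and 0.749 and 0.889 CPM in ILTCkP (log2 -5.31 ± 0.39, edgeR adjusted p = 0.00512), although Foxp3, the factor of that lineage, rose from 7.27 and 2.82 CPM to 43.6 and 30.8 CPM (log2 2.88 ± 0.54, edgeR adjusted p = 0.0453; lost without CD8SP replicate 2). Adgrg3, an adhesion receptor, stood at 49.5 and 47.8 CPM in CD8SP and 2.25 and 2.27 CPM in ILTCkP (log2 -4.43 ± 0.33, edgeR adjusted p = 0.00524). The 2 calls among 11 receptors of the TGF-β superfamily were both lower: Acvrl1, at 52.8 and 50.5 CPM in CD8SP and 0 and 1.13 CPM in ILTCkP (log2 -6.43 ± 1.19, edgeR adjusted p = 0.0441; not called by DESeq2), and Tgfbr3, the co-receptor betaglycan, at 28.5 and 44.9 CPM in CD8SP and 6.50 and 8.24 CPM in ILTCkP (log2 -2.31 ± 0.38, edgeR adjusted p = 0.0317; lost without CD8SP replicate 2).

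Of 40 interleukin and interferon receptor genes 5 rose and 1 fell, and of 14 receptor tyrosine kinases 1 rose, Kit, and 1 fell. These were shares of 15% and 14.3% called, against 4.71% over all genes tested. Kit, the stem cell factor receptor of progenitors and mast cells, stood at 12.9 and 16.3 CPM in CD8SP and 206 and 292 CPM in ILTCkP (log2 4.09 ± 0.31, edgeR adjusted p = 0.00577; chromosome 5, 75574916 to 75656722). Il9r, the interleukin 9 receptor, stood at 0.758 and 0.601 CPM in CD8SP and 44.1 and 21.2 CPM in ILTCkP (log2 5.58 ± 0.55, edgeR adjusted p = 0.00907). Il1r1, which receives interleukin 1, had 0 counts in CD8SP and 4.69 and 3.62 CPM in ILTCkP, at least 82.6-fold higher with 3 counts set over the CD8SP group. Il6ra, a receptor chain of naive cells, fell from 14.1 and 17.5 CPM to 1.34 and 0.613 CPM (log2 -4.02 ± 0.54, edgeR adjusted p = 0.0179).

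Of 22 galectins, annexins and S100 proteins, which bind sugars, membranes and calcium, 6 rose and 1 fell, and the median log2 fold change was 0.44. Lgals3, which encodes galectin 3, stood at 6.93 and 5.25 CPM in CD8SP and 617 and 386 CPM in ILTCkP (log2 6.36 ± 0.38, edgeR adjusted p = 0.00329; chromosome 14, 47367751 to 47386160). Anxa2, annexin A2, stood at 131 and 118 CPM in CD8SP and 1507 and 1415 CPM in ILTCkP (log2 3.55 ± 0.22, edgeR adjusted p = 0.00329). S100a6 and S100a4 rose from 5.86 and 6.80 CPM to 127 and 114 CPM and from 0.552 and 0.253 CPM to 23.3 and 32.5 CPM (edgeR adjusted p = 0.00414 and 0.00733), and S100a11 rose by 2.11 ± 0.22. The lower gene, S100a8, is a neutrophil gene whose call was lost with the GC trend removed and without either CD8SP replicate. The genes of this group that rose had no overlap between the populations, which also held for 58.2% of all genes tested.

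Adhesion and costimulatory molecules were mixed. Cd7 and Cd9, an immunoglobulin-family and a tetraspanin gene, stood at 197 and 187 CPM in CD8SP and 1171 and 1221 CPM in ILTCkP and at 36.7 and 34.7 CPM in CD8SP and 237 and 174 CPM in ILTCkP, and rose by 2.64 ± 0.21 and 2.52 ± 0.26. Fcrl1, a receptor-like gene known from B cells, stood at 0.655 and 0.285 CPM in CD8SP and 48.6 and 64.5 CPM in ILTCkP (log2 6.91 ± 0.53, edgeR adjusted p = 0.00626). Cd226, an activating receptor for nectin-like ligands, fell from 103 and 106 CPM to 4.10 and 8.89 CPM (log2 -4.004 ± 0.45, edgeR adjusted p = 0.0114), and its ligand gene Pvr fell by 1.66 on the log2 scale, a call lost without either CD8SP replicate. Itgae, the integrin chain CD103 that binds epithelium, stood at 685 and 636 CPM in CD8SP and 225 and 118 CPM in ILTCkP (log2 -1.95 ± 0.34, edgeR adjusted p = 0.039). Among 32 TNF ligands and receptors 6 rose and 1 fell. Those that rose included Tnfsf14 (LIGHT), from 2.34 and 2.31 CPM to 23.7 and 23.3 CPM (log2 3.33 ± 0.36, edgeR adjusted p = 0.0102), and Tnfrsf9 (4-1BB), from 118 and 121 CPM to 349 and 507 CPM (log2 1.84 ± 0.26, edgeR adjusted p = 0.0207). Tnfrsf18 (GITR) rose by 1.18 ± 0.22, but its call was lost with the GC trend removed, under upper-quartile scaling and without either CD8SP replicate. Of 8 Ly6 genes edgeR called 0 (3 at an unadjusted p under 0.05 and 1 by DESeq2). All 8 had a negative fold change, with a median of -0.90, and -1.06 with the GC trend removed.

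Enzymes that build surface glycans differed. Gcnt1, which starts the branch of O-glycans that carries selectin ligands, stood at 0.689 and 0.664 CPM in CD8SP and 17.1 and 23.9 CPM in ILTCkP (log2 4.91 ± 0.44, edgeR adjusted p = 0.00704). B3gnt7 and Chst2, a chain-extending and a sulphating enzyme, had 0 counts in CD8SP and stood at 15.6 and 8.95 CPM and 13.05 and 7.11 CPM in ILTCkP, at least 240.01-fold and 196-fold higher. St8sia1, which makes the ganglioside GD3, stood at 69.3 and 68.3 CPM in CD8SP and 6.90 and 3.95 CPM in ILTCkP (log2 -3.67 ± 0.39, edgeR adjusted p = 0.0103). Of 45 such enzymes 5 rose and 2 fell.

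Of 38 cytokine and growth factor genes 8 were called higher and 1 lower, 23.7% called against 4.71% over all genes tested. Over all genes, too, more calls were higher (3.38%) than lower (1.33%). Ccl5, a chemokine of effector T cells, stood at 3.24 and 6.04 CPM in CD8SP and 84.5 and 77.9 CPM in ILTCkP (log2 4.13 ± 0.41, edgeR adjusted p = 0.00907). Tgfb3, a TGF-β isoform, stood at 3.48 and 4.52 CPM in CD8SP and 61.1 and 49.7 CPM in ILTCkP (log2 3.79 ± 0.35, edgeR adjusted p = 0.00733). Pdgfb, a platelet-derived growth factor chain, stood at 13.2 and 12.2 CPM in CD8SP and 67.5 and 48.9 CPM in ILTCkP (log2 2.20 ± 0.32, edgeR adjusted p = 0.0208), and Xcl1, a chemokine that attracts cross-presenting dendritic cells, at 17.8 and 19.4 CPM in CD8SP and 61.5 and 83.9 CPM in ILTCkP (log2 1.97 ± 0.30, edgeR adjusted p = 0.0242); both calls were lost without either CD8SP replicate. Il4 was low, at 0.0689 and 0.0316 CPM in CD8SP and 2.13 and 1.41 CPM in ILTCkP (log2 5.03 ± 0.95, edgeR adjusted p = 0.0438), and its call was lost without either CD8SP replicate and with limma-voom.

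In metabolism, genes for extracellular ATP and adenosine rose in 6 of 20, with no lower call and a median log2 fold change of 0.07. P2rx7, an ATP-gated channel, stood at 5.07 and 5.92 CPM in CD8SP and 99.2 and 96.9 CPM in ILTCkP (log2 4.16 ± 0.29, edgeR adjusted p = 0.00449; chromosome 5, 122643911 to 122691432). The ecto-enzymes that turn ATP into adenosine were Entpd1 (CD39), at 2.28 and 1.61 CPM in CD8SP and 23.2 and 28.4 CPM in ILTCkP (log2 3.73 ± 0.40, edgeR adjusted p = 0.0102), and Nt5e (CD73), at 18.9 and 15.2 CPM in CD8SP and 149 and 186 CPM in ILTCkP (log2 3.30 ± 0.27, edgeR adjusted p = 0.00626). Adora2a, an adenosine receptor that restrains T cells, stood at 11.6 and 9.84 CPM in CD8SP and 191 and 147 CPM in ILTCkP (log2 3.98 ± 0.28, edgeR adjusted p = 0.00467). Enpp1, a further ecto-enzyme that cleaves ATP and the STING ligand cGAMP, stood at 5.03 and 5.28 CPM in CD8SP and 31.1 and 83.2 CPM in ILTCkP (log2 3.47 ± 0.54, edgeR adjusted p = 0.0281). Adk, which returns adenosine to AMP inside the cell, rose by 1.20 ± 0.24, a call lost without either CD8SP replicate. The channel, these ecto-enzymes and the receptor had no overlap between the populations, as was so for 58.2% of all genes tested.

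Fatty acid oxidation genes rose in 5 of 37, with no lower call, 13.5% called against 4.71% over all genes tested. Among the 5, Eci1 lost its call with the GC trend removed, with glmTreat at 1.5-fold and without either CD8SP replicate. Cpt1a, which admits long-chain fatty acids to mitochondria, stood at 59.2 and 66.4 CPM in CD8SP and 254 and 208 CPM in ILTCkP (log2 1.88 ± 0.23, edgeR adjusted p = 0.0138; lost without CD8SP replicate 1). Acot7, an acyl-CoA thioesterase, stood at 161 and 111 CPM in CD8SP and 686 and 539.9 CPM in ILTCkP (log2 2.17 ± 0.28, edgeR adjusted p = 0.0162). Crat, carnitine acetyltransferase, stood at 6.07 and 7.50 CPM in CD8SP and 49.4 and 30.8 CPM in ILTCkP (log2 2.56 ± 0.38, edgeR adjusted p = 0.0243; lost without CD8SP replicate 1). Ppargc1a, which encodes PGC-1α, a coactivator of mitochondrial genes, had 0 counts in CD8SP and 2.05 and 1.84 CPM in ILTCkP, at least 39.01-fold higher. Plin2 and Pnpla2, for the coat and the lipase of lipid droplets, rose by 2.02 ± 0.38 and 1.64 ± 0.28; the first call was lost without CD8SP replicate 2 and the second without either.

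Mitochondrial genes at large did not follow. Of 80 nuclear subunits of complexes I to V and 75 mitochondrial ribosome genes 0 were called by edgeR, with medians of -0.18 and -0.04; DESeq2 called 0 higher and 1 lower in each list. At an unadjusted p under 0.05 edgeR had 14 of the 80 and 3 of the 75. In the TCA cycle list 2 of 34 genes fell, 5.88% called against 4.71% over all genes tested. Idh2, mitochondrial isocitrate dehydrogenase, stood at 159 and 168 CPM in CD8SP and 24.003 and 41.6 CPM in ILTCkP (log2 -2.32 ± 0.33, edgeR adjusted p = 0.021), and Pdk1, a kinase that shuts pyruvate out of the cycle, at 64.7 and 85.2 CPM in CD8SP and 13.2 and 19.98 CPM in ILTCkP (log2 -2.17 ± 0.34, edgeR adjusted p = 0.0281; lost without CD8SP replicate 2). Cholesterol synthesis and uptake (26 genes), nucleotide synthesis (47), one-carbon metabolism (19) and proteasome genes (42) had 0 edgeR calls, and at an unadjusted p under 0.05 2, 11, 1 and 6; DESeq2 called 0, 8, 0 and 1 in either direction.

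Carriers of sugars and acids changed in both directions. Slc16a5, a monocarboxylate carrier, stood at 77.98 and 80.8 CPM in CD8SP and 1.93 and 2.30 CPM in ILTCkP (log2 -5.22 ± 0.33, edgeR adjusted p = 0.00329), and its relative Slc16a3, which exports lactate, at 5.86 and 7.59 CPM in CD8SP and 105 and 39.2 CPM in ILTCkP (log2 3.42 ± 0.55, edgeR adjusted p = 0.0298). The glucose carriers Slc2a6 and Slc2a10 rose from 0.379 and 0.475 CPM to 20.5 and 6.56 CPM (log2 4.97 ± 0.74, edgeR adjusted p = 0.0244; lost with limma-voom) and from 0 counts to 4.22 and 6.10 CPM (edgeR adjusted p = 0.0154), while Slc2a1, the main glucose carrier of T cells, stood at 92.4 and 78.6 CPM in CD8SP and 181 and 117 CPM in ILTCkP (edgeR adjusted p = 0.183). Slc25a24, a mitochondrial carrier of ATP and magnesium, stood at 3.24 and 5.89 CPM in CD8SP and 37.9 and 79.8 CPM in ILTCkP (log2 3.69 ± 0.54, edgeR adjusted p = 0.0226). Of 208 solute carriers 19 rose and 2 fell, 10.1% called against 4.71% over all genes tested. Beside Slc16a5 the gene that fell was Slc6a19, a neutral amino acid carrier of gut and kidney. It stood at 13.1 and 12.3 CPM in CD8SP and 0 and 0.123 CPM in ILTCkP (log2 -7.48 ± 0.89, edgeR adjusted p = 0.0134).

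Redox, iron and amino acid genes gave further large differences. Gsta4, a glutathione transferase that clears lipid aldehydes, stood at 2.03 and 3.77 CPM in CD8SP and 109 and 159.7 CPM in ILTCkP (log2 5.53 ± 0.45, edgeR adjusted p = 0.00626). Steap3, a ferric reductase of the transferrin cycle, stood at 7.65 and 6.08 CPM in CD8SP and 183 and 132 CPM in ILTCkP (log2 4.52 ± 0.32, edgeR adjusted p = 0.00493), and Trf, transferrin itself, at 0.172 and 0.190 CPM in CD8SP and 17.8 and 12.4 CPM in ILTCkP (log2 6.34 ± 0.53, edgeR adjusted p = 0.00626). Bcat1, the cytosolic enzyme that starts the breakdown of branched-chain amino acids, stood at 2.55 and 4.05 CPM in CD8SP and 57.6 and 44.7 CPM in ILTCkP (log2 3.95 ± 0.40, edgeR adjusted p = 0.00923), and Prodh, proline dehydrogenase, rose by 3.61 ± 0.62. Txnip, a thioredoxin inhibitor that also lowers glucose uptake, fell from 695 and 689.7 CPM to 319.8 and 275 CPM (log2 -1.22 ± 0.21, edgeR adjusted p = 0.033; lost without either CD8SP replicate). Hsd11b1, which makes active glucocorticoid, fell by 1.90 on the log2 scale and Dhrs3, a retinal reductase, rose by 3.55 ± 0.54. Xdh, xanthine dehydrogenase of purine breakdown, stood at 18.99 and 21.8 CPM in CD8SP and 361 and 291 CPM in ILTCkP (log2 3.996 ± 0.26, edgeR adjusted p = 0.00378).

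**Figure D4:**
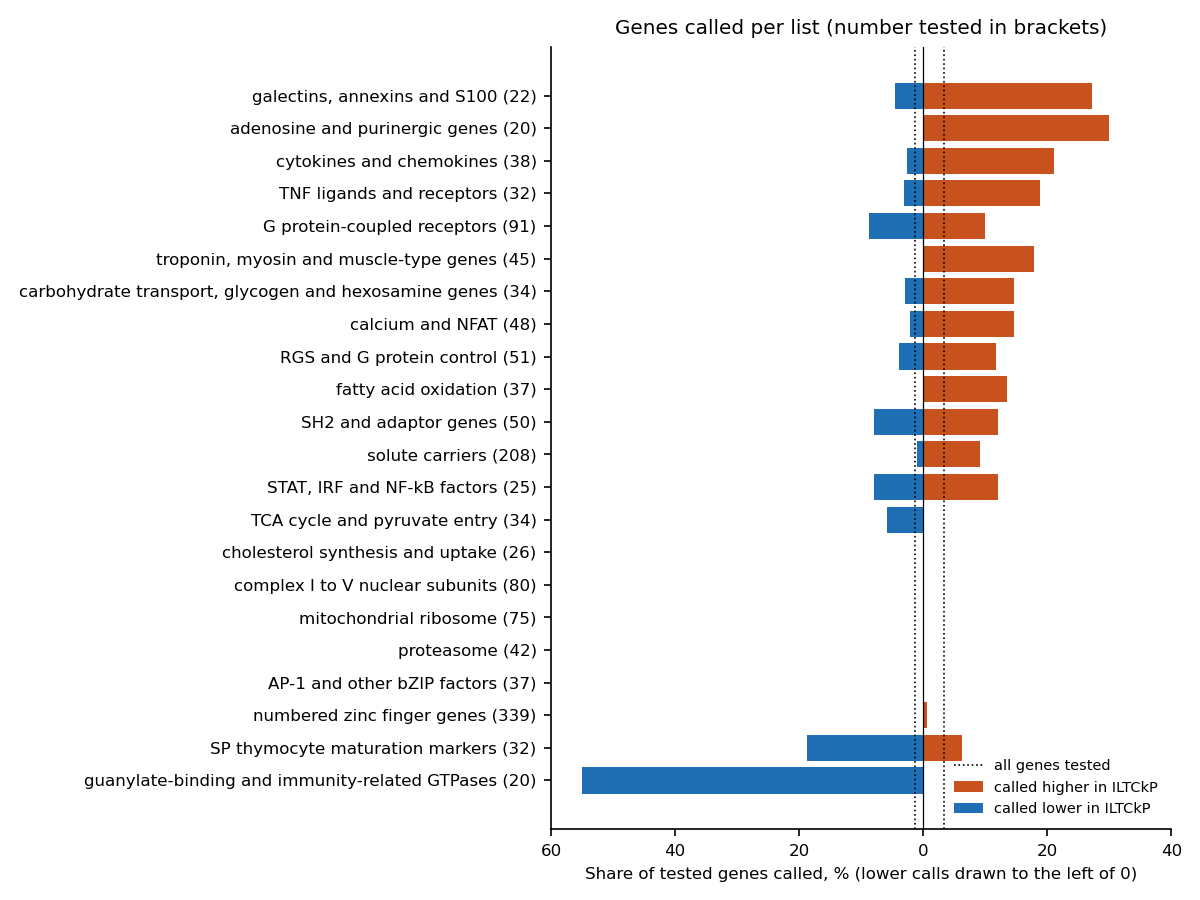
Share of tested genes called higher (orange, right of 0) and lower (blue, left of 0) in ILTCkP for 22 of the 104 lists and families, picked after their counts were seen; dotted lines mark the 3.38% and 1.33% over all genes tested. The bar of the GTPases reaches 55% on the lower side and that of adenosine and purinergic genes 30% on the higher side.

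Adaptors of receptor signalling changed in both directions, with 6 higher and 4 lower of 50 SH2 and adaptor genes. Lat2, the LAT-like linker of B, mast and NK cells, stood at 0.965 and 0.759 CPM in CD8SP and 117 and 98.5 CPM in ILTCkP (log2 6.96 ± 0.35, edgeR adjusted p = 0.00208). Sh2d1b1 (EAT-2) and Clnk, adaptors of NK and mast cells, had 0 counts in CD8SP and 2.80 and 5.15 CPM and 4.02 and 2.27 CPM in ILTCkP. Plcg2, the phospholipase C of B and NK cells, stood at 3.31 and 6.27 CPM in CD8SP and 141 and 151 CPM in ILTCkP (log2 4.93 ± 0.40, edgeR adjusted p = 0.00626). Themis and Sit1, which tune T cell receptor signals in thymocytes, fell from 141 and 197 CPM to 16.2 and 39.2 CPM (log2 -2.61 ± 0.47, edgeR adjusted p = 0.0419) and from 209 and 191 CPM to 43.04 and 14.8 CPM (log2 -2.79 ± 0.52, edgeR adjusted p = 0.0441). Ubash3b, a phosphatase that limits receptor signals, stood at 23.7 and 25.5 CPM in CD8SP and 262 and 337 CPM in ILTCkP (log2 3.61 ± 0.25, edgeR adjusted p = 0.00449).

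Other regulators of phosphoinositide and G protein signals moved as well. Inpp4b, a phosphoinositide phosphatase, stood at 332 and 334 CPM in CD8SP and 27.7 and 20.4 CPM in ILTCkP (log2 -3.79 ± 0.26, edgeR adjusted p = 0.00449). Tbc1d4, an AKT substrate, rose by 2.97 ± 0.38, and the kinase gene Sgk3 fell by 2.11 on the log2 scale, a call lost without CD8SP replicate 2. Among 51 RGS and G protein genes 6 rose and 2 fell: Rgs9, with 0 counts in CD8SP, stood at 5.44 and 7.57 CPM, and Rgs12 rose by 2.41 ± 0.35, while Rgs10 fell from 195 and 181 CPM to 37.5 and 41.7 CPM (log2 -2.25 ± 0.23, edgeR adjusted p = 0.00878). Pde4a, a cyclic AMP phosphodiesterase, rose by 2.52 ± 0.42, and its call was lost with the GC trend removed and without either CD8SP replicate.

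Genes of the cytoskeleton and of muscle rose in 8 of 45, with no lower call, 17.8% called against 4.71% over all genes tested. Myo1e and Myo1f, class I myosins of the cell cortex, stood at 0.931 and 1.52 CPM in CD8SP and 364 and 265 CPM in ILTCkP (log2 7.99 ± 0.41, edgeR adjusted p = 0.00222) and at 73.3 and 82.4 CPM in CD8SP and 614 and 285 CPM in ILTCkP (log2 2.53 ± 0.40, edgeR adjusted p = 0.0289). Myl1, a light chain of fast skeletal muscle, had 0 counts in CD8SP and stood at 16.3 and 40.3 CPM in ILTCkP, at least 602-fold higher. Fhl2 and Pdlim7, LIM-domain scaffolds, rose by 2.76 ± 0.32 and 2.61 ± 0.43.

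A gene was taken as present in 1 population when both of its libraries had at least 1 CPM and the other population had at most 3 counts in all. By this rule 103 genes, 0.437% of the 23559 with any count, were present in ILTCkP and not in CD8SP, and 62 of them had 0 CD8SP counts. In the other direction there were 19 genes (0.0806%), 8 of them with 0 ILTCkP counts. At these depths 3 counts limit what a count of 0 allows, and they cover counting error only. edgeR called 82 of the 103 and 10 of the 19.

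Besides Zbtb16, Ptpn5 and Klrb1a, whose levels in ILTCkP ranged from 39.8 to 265 CPM, the highest of the ILTCkP genes included several better known from other tissues. Greb1, an oestrogen-regulated gene, stood at 25.1 and 32.7 CPM against 0 and 0.0633 CPM (edgeR adjusted p = 0.00626). Tns4, a focal adhesion gene, stood at 34.9 and 22.7 CPM against 0.0689 and 0 CPM. Bpi, a bactericidal protein of neutrophils, Tmprss6, the protease that sets hepcidin levels, and Nrbp2, a pseudokinase gene, all had 0 counts in CD8SP and 25.5 and 14.96, 22.5 and 15.8 and 17.9 and 13.8 CPM in ILTCkP, at least 395-fold, 379-fold and 315-fold higher. Prss50 (a testis protease) stood at 14.98 and 28.1 CPM. Hdac9, a class IIa histone deacetylase, stood at 11.9 and 20.8 CPM against 0.0689 and 0 CPM (edgeR adjusted p = 0.0102).

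H19 and Igf2, the imprinted non-coding RNA and growth factor gene that lie side by side on chromosome 7, each had 0 CD8SP counts. They stood at 14.5 and 4.996 CPM and 4.61 and 1.41 CPM in ILTCkP, at least 185-fold and 56.8-fold higher (chromosome 7, 142575529 to 142578143 and chromosome 7, 142650766 to 142666816). In both genes the first ILTCkP library was the higher one. Hbegf, an epidermal growth factor family gene, had 0 CD8SP counts and 2.76 and 1.32 CPM. Nos1, the neuronal nitric oxide synthase, stood at 29.9 and 3.62 CPM, far apart between the replicates, and its call was lost with limma-voom.

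The genes present in CD8SP alone were fewer and at lower levels. Amigo2, an adhesion protein, stood at 8.65 and 6.68 CPM against 0 and 0.0919 CPM (edgeR adjusted p = 0.0172). Tdrd5, a Tudor-domain gene, stood at 7.20 and 6.36 CPM against 0 and 0.0306 CPM (edgeR adjusted p = 0.0102). Neb (nebulin, a giant muscle protein) stood at 4.14 and 7.75 CPM and Ninj2, an adhesion gene, at 3.62 and 4.62 CPM. Il34, a ligand of the CSF1 receptor, stood at 1.28 and 1.71 CPM against 0 counts, at least 29.03-fold lower in ILTCkP, a call lost without CD8SP replicate 2.

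**Figure D5:**
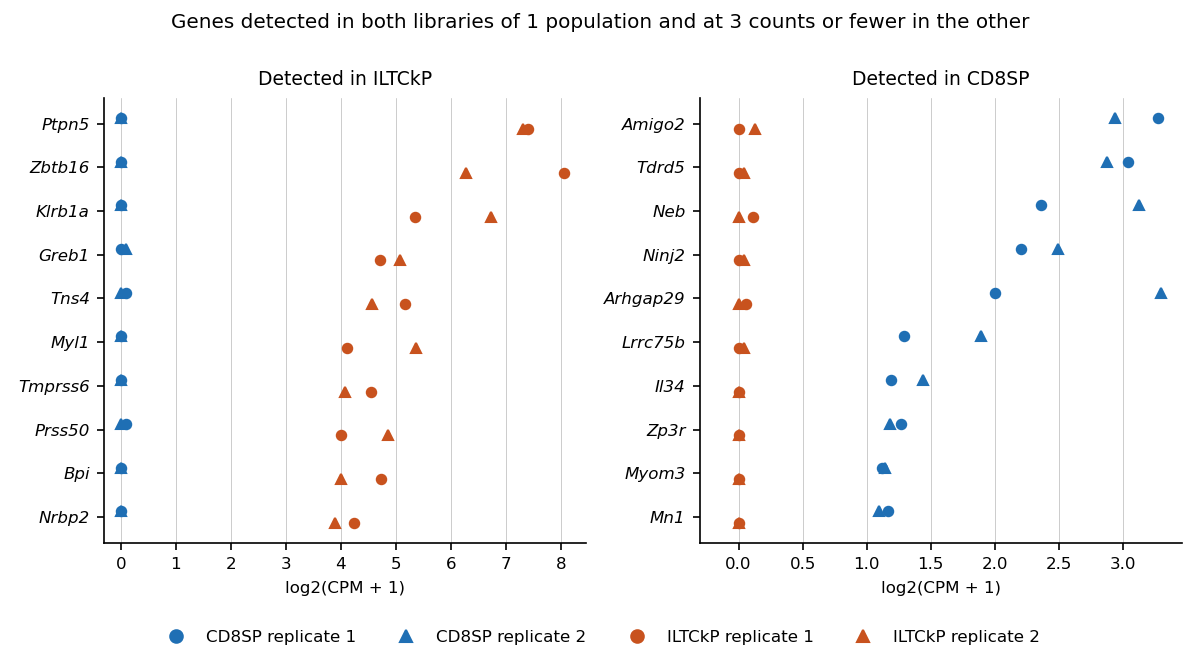
Level of the 10 genes per direction with the highest lower library, among those present in both libraries of ILTCkP (left) or CD8SP (right) and at 3 counts or fewer in the other population, as log2(CPM + 1); the horizontal scales differ. The ILTCkP genes reach 265 CPM and the CD8SP genes 8.83 CPM.

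Outside the lists, the genes with the smallest adjusted p included several of known lymphocyte interest. Susd2, a surface protein of the sushi family, stood at 2.86 and 4.52 CPM in CD8SP and 185 and 263 CPM in ILTCkP (log2 5.92 ± 0.39, edgeR adjusted p = 0.00449). Spock2, a matrix proteoglycan, stood at 1.17 and 0.918 CPM in CD8SP and 103 and 58.4 CPM in ILTCkP (log2 6.27 ± 0.47, edgeR adjusted p = 0.00577), and Itih5, a hyaluronan-linked protein, at 13.1 and 14.8 CPM in CD8SP and 160.2 and 174 CPM in ILTCkP (log2 3.58 ± 0.25, edgeR adjusted p = 0.00449). Slfn1, a Schlafen gene of quiescent T cells, stood at 207 and 204 CPM in CD8SP and 14.5 and 13.2 CPM in ILTCkP (log2 -3.89 ± 0.24, edgeR adjusted p = 0.00329). Ms4a4b, a membrane protein of naive and mature T cells, stood at 1005 and 1014 CPM in CD8SP and 121 and 192 CPM in ILTCkP (log2 -2.69 ± 0.29, edgeR adjusted p = 0.0105). Rtp4, an interferon-induced gene, fell from 203 and 193 CPM to 40.8 and 43.2 CPM (log2 -2.24 ± 0.22, edgeR adjusted p = 0.00831).

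Markers of other cells moved with the comparison as follows, and their part in the results was not tested. The summed level of 12 regulatory T cell markers was 628 to 693 CPM in CD8SP and 1392 to 1575 CPM in ILTCkP, and that of 10 gamma-delta T cell markers 32.3 to 39.2 and 332 to 461 CPM. The regulatory T cell list was split, with 6 positive and 6 negative fold changes and a median of 0.18. In it 4 genes were called higher and 1, Gpr83, lower. Natural killer T and MAIT markers (14) summed to 319.5 to 321 and 499 to 619 CPM, with the receptor segments Trav11, Traj18 and Traj33 at 0 in all 4 libraries and Trav1, the MAIT V segment, at 1.52 and 1.20 CPM in CD8SP and 0.867 and 1.35 CPM in ILTCkP. Segments at 0 in all 4 libraries cannot show whether such cells were absent, since the counting program is not known and may not register them. The 13 NK cell and ILC markers summed to 187 to 209.7 and 696 to 709.97 CPM, with Ncr1, Klra8 and Klra4 at 0 in ILTCkP. Without Id2, the highest member, the sums were 92.7 to 92.8 and 403 to 432 CPM. Most of the latter was Kit, at 206 and 292 CPM, and Gata3, at 161 and 112 CPM. Klre1 was under 1 CPM in every library. Of 7 members tested 6 had a positive fold change and 1, Eomes, a negative one. B cell markers (45.7 to 49.1 against 47.3 to 65.7 CPM) and myeloid markers (43.4 to 56.0 against 26.9 to 74.8) overlapped, and stromal markers summed to 162 to 172 and 114 to 159.7 CPM. Without Cd79b, its highest member, the B cell list summed to 3.80 to 5.48 CPM in CD8SP and 13.8 to 17.99 CPM in ILTCkP, which did not overlap. Of 6 B cell markers tested, 5 had a positive and 1 a negative fold change, and 0 were called. The 12 dendritic cell markers summed to 1327 to 1588 and 186 to 224 CPM; without Ccr7, which naive T cells also express, the sums were 116 to 118 and 107 to 139.5 CPM and overlapped, and Clec9a was at 0 in all 4 libraries. Erythroid and platelet markers reached 90.2 CPM in ILTCkP replicate 1 against 11.9 in replicate 2. Markers of double-negative and double-positive thymocytes, which include Cd8b1, summed to 2947 to 3379 and 146 to 182 CPM, and without that gene to 329 to 336 and 139 to 171 CPM.

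Among 5556 genes with a mean log2 CPM of at least 5, 739 (13.3%) differed over 2-fold between the ILTCkP libraries and 6 (0.108%) between the CD8SP libraries. Of these 37 differed over 4-fold in ILTCkP, 32 of them higher in replicate 2. Naa50, an acetyltransferase subunit, stood at 5.68 and 50.6 CPM and Hif1a, the hypoxia factor, at 14.2 and 86.7 CPM, against 66.3 and 87.97 CPM and 72.2 and 91.9 CPM in CD8SP, so that replicate 1 lay far below the CD8SP pair in both genes and replicate 2 lay between the CD8SP libraries for Hif1a. In the other direction Ctse, cathepsin E, stood at 353 and 58.6 CPM and Cxcr4, a chemokine receptor, at 59.1 and 15.7 CPM. None of these 4 genes was called between the populations. The named genes called above were all still called without either ILTCkP library, where the spread came from the CD8SP pair alone and the lone library was assumed to vary like it.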

How the data were processed

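Bulk RNA from 2 CD8SP and 2 ILTCkP samples was measured as whole-number read counts for 50508 gene symbols, in the table the authors deposited; 23559 symbols had a count and mitochondrial genes had 0. The authors used mm10 and DESeq, per the submitters' processing notes; aligner, counting program and strand use are not given in these sources, so overlapping and near-identical genes may share reads. Everything else was computed anew from these counts.

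Genes were kept with filterByExpr (14634), libraries scaled by TMM and groups compared with edgeR 4.0.16 (glmQLFit with robust estimation, quasi-likelihood test) in R 4.3.3; a gene was called at a Benjamini-Hochberg adjusted p under 0.05 over all genes tested, two-sided. Standard errors are the fold change divided by the square root of F. Against a group at 0 counts the fold was bounded by giving that group 3 counts in total. Transcript GC content came from the longest GENCODE M21 transcript (97.3% of tested genes had one), coordinates from GENCODE M21 on GRCm38 (47653 symbols found) and promoters from RefSeq, which matched 9613 tested genes. Alternatives were RLE and upper-quartile scaling, DESeq2 1.42.0, limma-voom (limma 3.58.1), other filters, glmTreat at 1.5-fold, a replicate block, each library left out and, added after the data were seen, GC correction. Scripts were tested on simulated data.

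The comparison, its 39 lists, 54 families and 11 marker lists were chosen with earlier results of these data known. Named genes were up to 8 per direction and kind with the largest called change, a mean log2 CPM of at least 4 and no overlap; up to 4 per list by adjusted p; up to 10 per direction present in 1 population; up to 10 per direction outside the lists by adjusted p; up to 8 per direction by the ILTCkP replicate ratio; and 4 genes of the gates. Receptor segments, predicted, Rik, mitochondrial and ribosomal genes were left out of that rule. A further 35 genes were named after their values were seen, Irgm1, the Gbp genes, Ifi47, Iigp1, Cd226, Ccr6, Cx3cr1, Adk, H19, Igf2, Tcf7 and Lef1 among them, and lists were picked for description in the same way.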

Additional observations from a re-analysis of the deposited data

How the results depend on the processing

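The counts of called genes differed between fits. Against 495 higher and 194 lower genes, DESeq2, fitted to all genes with a count, called 1335 and 698. The fit with no filter on low counts called 1600 and 935, and the fit with the replicate block 1267 and 945. With glmTreat at 1.5-fold 120 were called lower and 360 higher. RLE and upper-quartile scaling, limma-voom, a minimum of 50 counts and GC correction stayed within 1.5 times. Leaving out each library in turn gave 442 to 3528 higher and 150 to 3489 lower genes. The largest counts came without ILTCkP replicate 2 (3528 and 3489), followed by those without ILTCkP replicate 1 (1622 and 1190), and both kept every call of the full fit; without CD8SP replicate 1 345 of the 495 and 123 of the 194 were called again, and without CD8SP replicate 2 330 and 117. The labels do not say that a replicate number marks a shared animal or day, and 2 pairs give a single correlation of 0.1921 between same-numbered deviations, so the block is a hint from the data only. It lost no call of a named gene and added those of Cd4 (log2 1.32, edgeR adjusted p = 0.0389), Mn1 and Myom3.

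Genes present in ILTCkP and not in CD8SP were 25 at 5 CPM, 187 at 0.5 CPM, 62 with 0 counts and 174 with up to 10 counts in the other population, and 160 to 253 with each library left out. Those present in CD8SP and not in ILTCkP were 2, 53, 8 and 46, and 30 to 139; the highest came without ILTCkP replicate 2. Of 270 named called genes 64 were lost with glmTreat, 65 without CD8SP replicate 1, 74 without CD8SP replicate 2, 9 with GC correction, 9 with limma-voom, 2 with upper-quartile scaling and 1 with DESeq2. No called gene changed sign. Il2ra, not called, turned from -0.16 to 0.13 with GC correction, 0.25 without CD8SP replicate 1 and 0.10 without ILTCkP replicate 1, in a range of -0.47 to 0.25 with each library left out. The causes were not tested. With 2 libraries a group, small differences in genes of few counts were not detectable.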

Other observations

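Of 29 p53 target genes 4 rose and 1 fell. Bbc3, which encodes the cell death protein PUMA, stood at 5.03 and 4.46 CPM in CD8SP and 33.7 and 24.1 CPM in ILTCkP (log2 2.60 ± 0.36, edgeR adjusted p = 0.0188; lost without CD8SP replicate 2), and Sesn2, a stress sensor that restrains mTORC1, at 11.6 and 11.4 CPM in CD8SP and 70.3 and 57.7 CPM in ILTCkP (log2 2.48 ± 0.29, edgeR adjusted p = 0.0121). Ddb2, a DNA repair gene, fell from 50.3 and 54.2 CPM to 14.1 and 16.7 CPM (log2 -1.76 ± 0.29, edgeR adjusted p = 0.0301; lost without either CD8SP replicate). Of 53 autophagy and lysosome genes 2 rose and no call was lower, 3.77% against 4.71% over all genes tested. Sphingolipid and phospholipid enzymes had 4 higher and 1 lower of 35: Sgms1, a sphingomyelin synthase, stood at 21.1 and 25.4 CPM in CD8SP and 98.3 and 128 CPM in ILTCkP (log2 2.28 ± 0.28, edgeR adjusted p = 0.0134), and Lpcat1, a phospholipid remodelling enzyme, at 24.96 and 29.3 CPM in CD8SP and 6.42 and 6.01 CPM in ILTCkP (log2 -2.13 ± 0.33, edgeR adjusted p = 0.0261; lost without either CD8SP replicate).

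Neighbouring genes were called together in 6 places where 3 or more tested genes in a row moved the same way. On chromosome 6, from 143828425 to 145174934, Sox5, Bcat1 and Lrmp were higher in ILTCkP; Lrmp stood at 208 and 216 CPM in CD8SP and 1025 and 873 CPM in ILTCkP. On chromosome 15, from 78439667 to 78531416, Tmprss6, Il2rb and C1qtnf6 were higher; C1qtnf6, a secreted protein gene, stood at 0.758 and 0.981 CPM in CD8SP and 21.99 and 14.5 CPM in ILTCkP. On chromosome 11, from 48985327 to 49096974, 4 genes from Tgtp1 to Ifi47 were lower, and on chromosome 17 Satb1 and 2 transcripts beside it were lower. The others were the T cell receptor gamma segments on chromosome 13, higher, and the interval from Cd8b1 to Cd8a on chromosome 6, lower. How often such runs arise by position alone was not tested.

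By gene class, of 307 lincRNA genes 8 were higher and 3 lower, and of 941 processed pseudogenes 1 was higher and 1 lower. Of 11496 protein-coding genes 456 were higher and 180 lower; the difference between classes was not tested.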
